A study of Mus musculus with 2 samples.

Results

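L2/3 IT CTX-1 neurons are the excitatory nuclei that carry this name in the subclass column that the deposited table keeps for its neuron subset. There were 612 of them (360 in the male library, 252 in the female), among 8171 nuclei with a row in the table, 2580 nuclei of the neuron subset and 1887 nuclei of the 7 excitatory labels used here. They made up 26.1% (95% interval 23.8–28.5%) of the neuron subset of the male library and 21.0% (18.7–23.4%) of that of the female library, a mean of 23.5 ± 3.65% (SD, n = 2 libraries). The label is written CTX-1 below, and its nearest relative in name, L2/3 IT CTX-2 with 77 nuclei in each library, is written CTX-2.

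Nuclei were collected 7 days after a closed-skull mild traumatic brain injury (mTBI) from the cortex on the injured side of adult mice. The mice were over 7 weeks old and carried 1 copy each of Atf3-CreER and of Sun1-sfGFP. All groups compared here share this injury, this age, these alleles and tamoxifen on days 4 and 5. Cre is made where Atf3 is transcribed and tamoxifen lets it turn on a GFP of the nuclear envelope for good, so sorting for GFP kept nuclei of cells that used Atf3 around those days, whatever they transcribed at collection. The 2 libraries, each a pool of 4 animals, were 1 of males and 1 of females, so sex, library and depth cannot be told apart, and no difference between the libraries was tested. Nuclei of uninjured cortex were not analysed here, so no response to injury was measured.

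Intratelencephalic (IT) neurons of layers 2 and 3 are glutamatergic pyramidal cells whose axons stay within the telencephalon, in other cortical areas and, for some, the striatum. They differ in this from the pyramidal tract neurons of layer 5 (L5 PT in these labels), which project to the brainstem and spinal cord. Atf3 codes for a transcription factor of the ATF and AP-1 group that neurons induce after axon injury and cell stress, and that works beside Jun and the stress factor Ddit3 (CHOP).

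The median CTX-1 nucleus of the male pool held 3703.5 UMIs (unique molecular identifiers, 1 per captured RNA molecule) from 1751 genes, and that of the female pool 7366 UMIs from 2629.5 genes. Their summed depth was 1662035 and 2204953 UMIs, against 183301 and 256087 UMIs for CTX-2, whose median nucleus had 1506 and 1921 UMIs. Levels below are CPM, the UMIs of a gene per 1000000 UMIs of the summed nuclei of a label, always with the male library first. RNA of other cells was present. The 15 microglial markers summed to 572 and 919 CPM in CTX-1, 764 and 1890 CPM in CTX-2, 628 and 893 CPM in L5 PT and 8318 and 8005 CPM in nuclei labelled microglia. No member of the list was at 0 in CTX-1. RNA of barcodes outside nuclei, with 101 to 500 UMIs, would make up 4.63% and 3.47% of the CTX-1 sums, 8.98% and 9.13% of the CTX-2 sums and 4.61% and 2.55% of the L5 PT sums. A field of the female library's labels reads male, but its title and the deposited table say female, and Xist was at 1638 CPM there against 3.33 CPM in the male library. The intervals given below are exact 95% binomial intervals and cover counting error only.

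The 3 genes taken as markers of the label were all counted in CTX-1, and 1 of them, Cux2, was called against CTX-2, a call that 8 of 14 alternatives ended. Cux2 (ENSMUSG00000042589, chr5:121856366-122050102, minus strand, GRCm38), a homeobox factor of upper layer neurons, stood at 541 and 491 CPM in CTX-1, a mean of 516 ± 35.2 (SD, n = 2). It was at 218 and 203 CPM in CTX-2, 226 and 309.8 in L4/5 IT and 9.80 and 5.78 in L5 PT. In both libraries CTX-1 was the highest of the 7 labels, and its values did not overlap with those of any other. At least 1 Cux2 UMI was found in 73.3% (68.4–77.8%) and 79.8% (74.3–84.5%) of the CTX-1 nuclei of the male and female library, and in 31.2% and 26.0% of CTX-2, 4.55% and 6.55% of L5 PT and 3.61% and 5.18% of microglia, which had median depths of 1298.5 and 3012.5 UMIs. After each nucleus was thinned to 2300 UMIs, with 99 and 15 CTX-1 nuclei left out as shallower, the CTX-1 shares were 64.4% and 57.4%.

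Car10 (ENSMUSG00000056158, chr11:93098028-93601749, plus strand), which codes for a protein related to carbonic anhydrases but without their activity, was at 966 and 817 CPM in CTX-1 and 818 and 226 CPM in CTX-2, so that the male CTX-2 sum lay between the 2 CTX-1 sums and the female one far below them. It was higher in L4/5 IT, at 1151 and 1074 CPM, and stood at 28.2 and 25.2 CPM in L5 PT. Igfn1 (ENSMUSG00000051985, chr1:135953578-136006342, minus strand), a gene of the immunoglobulin-like and fibronectin family, was at 176 and 126 CPM in CTX-1 and 207 and 82.0 CPM in CTX-2, which overlap, and at 5.51 and 3.47 CPM in L5 PT. Igfn1 was found in 26.9% (22.4–31.8%) and 22.2% (17.2–27.9%) of CTX-1 nuclei, against 1.07% and 0.984% of microglia. The genes Gad1 and Gad2, which interneurons use to make GABA, were at 10.2 and 3.63 CPM and 9.63 and 6.35 CPM in turn. Of the interneuron peptides and markers Pvalb, Sst and Vip there was at most 1 UMI per library. The paper reports that interneurons of this experiment also lacked markers such as Pvalb and Sst. Low counts of these therefore do not separate CTX-1 from interneurons. The full list of 15 interneuron markers summed to 95.1 and 73.0 CPM in CTX-1.

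**Figure D1:**
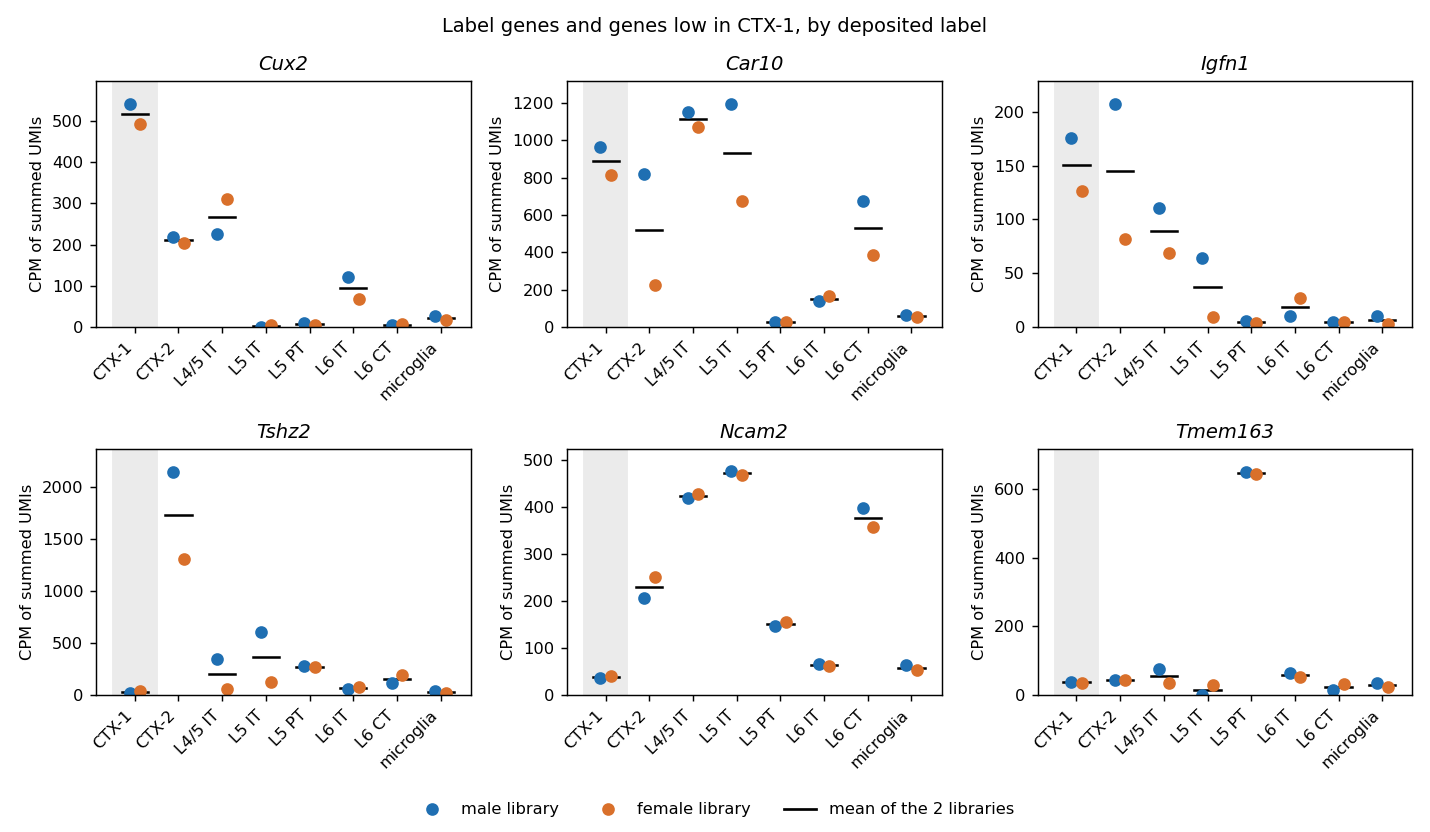
Levels of 6 genes in CPM of summed UMIs, by deposited label and in microglia, with a point for each library and a bar for their mean. For Cux2 the CTX-1 points, at 541 and 491 CPM, lie above those of every other label, while for Tshz2 and Ncam2 they lie far below those of CTX-2, and for Tmem163 far below those of L5 PT.

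The same nuclei had also been mapped together with all cells of the table. There, 540 of the 612 (88.2%) carried the same label, 39 were L6 IT, 12 CTX-2 and 10 microglia or macrophages. In the other direction, that mapping gave the CTX-1 label to 962 nuclei. Of these, 570 were in the neuron subset, 335 were edited to Unknown, and 57 lay outside the subset without that edit. By deposited cluster, 471 (77.0%) lay in cluster 3, in which CTX-1 was the most frequent label with 471 of 660 neuronal nuclei. Cluster 24 held 35, cluster 14, led by L5 PT, held 32, and cluster 17, led by L6 IT, held 26.

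To ask which genes set CTX-1 apart, UMIs were summed per label and library, and the 14 sums of 7 excitatory labels were compared in a single fit of 7627 genes. The quasi-likelihood test of edgeR was used, with p adjusted over all genes by the method of Benjamini and Hochberg, and a gene was called at an adjusted p under 0.05. Each p below is from this test unless another is named. Since the same counts gave the labels, the groups are in part defined by what is tested. The p-values measure the spread between a male and a female pool within a label, and the 3 comparisons share the CTX-1 sums. Against CTX-2, 26 genes were called, 8 higher in CTX-1 (0.105% of the genes tested) and 18 lower (0.236%). Against L5 PT, 995 were called, 511 higher (6.7%) and 484 lower (6.35%). Against the mean of L4/5 IT, L5 IT, L5 PT, L6 IT and L6 CT, each label with equal weight, 460 were called, 299 higher (3.92%) and 161 lower (2.11%). At an unadjusted p under 0.05 there were 618, 1743 and 1229 genes.

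With the library as a block, which pairs sums from the same animals, 80 (30 higher, 50 lower), 1643 (782 and 861) and 818 (503 and 315) genes were called. The CTX-2 sums are small beside those of CTX-1 and L5 PT. Smaller still were the L5 IT sums, at 77702 and 209208 UMIs, which enter the mean of the 5 labels. Without the female CTX-2 sum 6 genes were called, without the female CTX-1 sum 7 and without the male CTX-1 sum 10. DESeq2 called 46, of which 24 were higher, 52.2% against 30.8% in edgeR. Leaving out 1 sum brought the comparison with L5 PT to between 552 and 647 calls, and the comparison with the 5 labels to 199 without the male and 190 without the female CTX-1 sum. When nuclei with 3 or more microglial UMIs were left out, which kept 221 of 360 male and 29 of 252 female CTX-1 nuclei, 19, 240 and 73 genes were called. The median log2 fold change of all genes was −0.02, −0.0016 and 0.04 in the 3 comparisons. The same direction was found in each library alone for 25, 995 and 460 of the called genes.

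**Figure D2:**
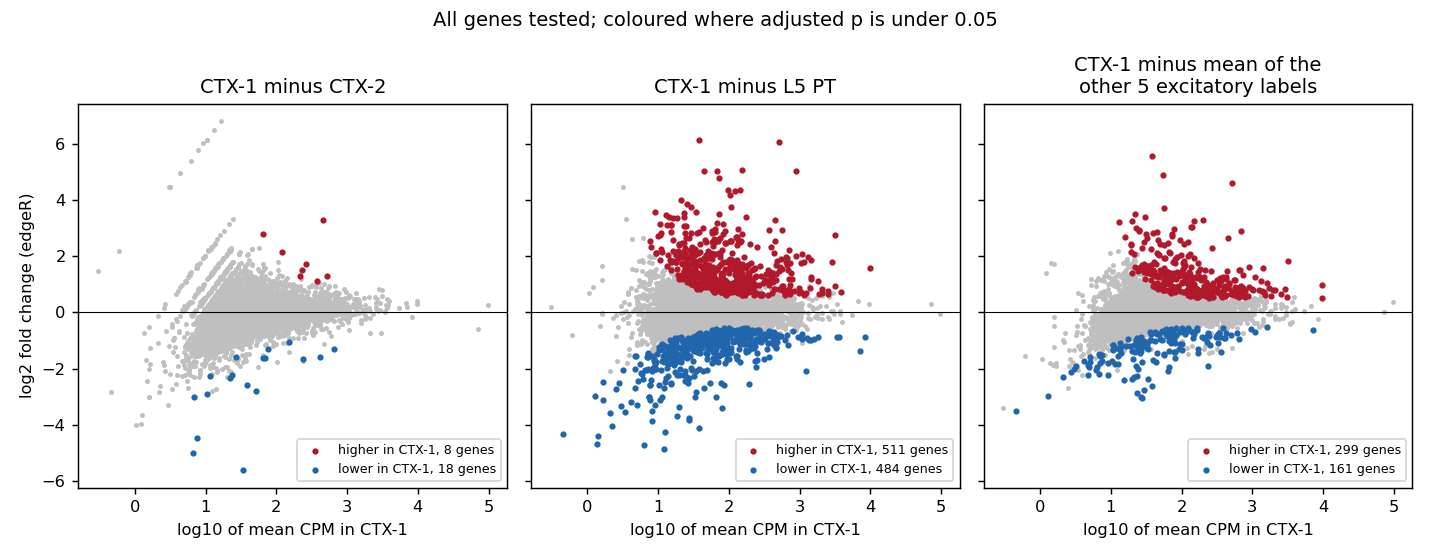
Log2 fold change in each comparison against the log10 of the mean CPM in CTX-1, a point for each of the 7627 genes tested, in red where called higher in CTX-1, in blue where called lower and in grey otherwise. Few points are coloured against CTX-2 (26), and many against L5 PT (995) and the mean of the other 5 labels (460).

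CTX-1 was lower than CTX-2 in Tshz2, Ncam2 and the predicted gene Gm26883, and higher in Ccbe1, Cux2 and 6 others. Of the 15 called genes that the naming rule chose here, Tshz2, Ncam2 and Gm26883 kept their call under every alternative that tested them. An alternative that did not test a gene is not counted, here and below. Tshz2 and Ncam2 were tested in 14 alternatives and Gm26883 in 13. Gm26883 (chr2:169633646-169888503, minus strand) lies within the span of Tshz2 on the opposite strand. The calls of Tshz2 and Gm26883 thus come from 1 locus and need not be independent. Tshz2 (ENSMUSG00000047907, chr2:169633013-170071816, plus strand), a zinc finger homeobox factor, was at 23.5 and 43.5 CPM in CTX-1 and 2144 and 1308 CPM in CTX-2. The CTX-2 sums were far above the CTX-1 sums, with a log2 fold change of −5.62 (SE 0.61, edgeR adjusted p = 5.74e-05). A Tshz2 UMI was found in 6.94% (4.54–10.1%) and 13.5% (9.53–18.3%) of CTX-1 nuclei and 36.4% (25.7–48.1%) and 31.2% (21.1–42.7%) of CTX-2 nuclei, and after thinning in 4.98% and 6.75% against 80.0% and 47.1%, with 25 and 34 CTX-2 nuclei deep enough. Microglia had it in 3.67% and 6.97% of nuclei. Ncam2 (ENSMUSG00000022762, chr16:81200697-81626828, plus strand), a neural cell adhesion molecule, was at 36.7 and 39.5 CPM in CTX-1 and 207 and 249.9 CPM in CTX-2, a log2 fold change of −2.60 (SE 0.23, edgeR adjusted p = 8.6e-06). Its CTX-1 sums were the lowest of all 7 labels in both libraries, below L6 IT at 65.3 and 60.9 CPM.

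Of the 8 genes higher in CTX-1 than in CTX-2, Ccbe1, which codes for a secreted protein needed for the growth of lymphatic vessels, had the largest fold change. It was at 514 and 400.5 CPM in CTX-1 and 87.3 and 15.6 CPM in CTX-2, without overlap, a log2 fold change of 3.29 (SE 0.47, edgeR adjusted p = 0.00213). The edgeR adjusted p was 0.107 without the female CTX-2 sum and 0.0803 when each label was held to its leading cluster. Ccbe1 was also called higher than in L5 PT and than the mean of the 5 labels, at log2 fold changes of 1.37 and 2.64, the first of which DESeq2 did not call (adjusted p = 0.119). The rest were Ankrd6, Gsg1l, Qrfpr, Syndig1, Luzp2, Cux2 and Plcb4, with log2 fold changes between 1.11 and 2.80. Syndig1, a regulator of AMPA receptors at excitatory synapses, was at 238 and 229 CPM against 81.8 and 82.0 CPM, and Gsg1l, another AMPA receptor partner, at 114 and 128 against 21.8 and 31.2 CPM. The Syndig1 and Gsg1l sums did not overlap, at edgeR adjusted p = 0.0346 and 0.0491. For Cux2 the log2 fold change was 1.29 (SE 0.24, edgeR adjusted p = 0.0205). The Cux2 call was lost when any 1 of the 4 sums was left out (log2 fold changes of 1.27 to 1.34, edgeR adjusted p from 0.0818 to 0.251), after thinning (1.24 and 0.0653), among nuclei with fewer than 3 microglial UMIs (1.48 and 0.196), in the leading cluster of each label (1.07 and 0.098) and with both labels held to cluster 3 (1.09 and 0.112). Without 1 sum, Syndig1 reached an edgeR adjusted p of up to 0.344 and Gsg1l of up to 0.344.

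Among the 18 genes lower in CTX-1 than in CTX-2 were long non-coding or predicted genes and deep layer factors. Gm26883 was at 7.22 and 5.90 CPM against 180.0 and 242 CPM, a log2 fold change of −5.02 (SE 0.47, edgeR adjusted p = 1.51e-05). Gm26870 was at 40.9 and 61.7 CPM against 436 and 297 CPM, a log2 fold change of −2.79 (SE 0.36, edgeR adjusted p = 0.000634). With both labels held to cluster 3, the log2 fold change of Gm26870 was −1.31 and its edgeR adjusted p 0.849. Foxp2, a forkhead factor of corticothalamic neurons, was at 7.82 and 5.90 CPM against 87.3 and 31.2 CPM. Its log2 fold change of −3.01 (SE 0.55, edgeR adjusted p = 0.0205) turned to 0.40 within cluster 3 (edgeR adjusted p = 0.986), and the call was lost without either CTX-1 sum (adjusted p = 0.0509 and 0.104) and without the male CTX-2 sum (adjusted p = 0.374). Grik1, a kainate receptor subunit, was at 13.2 and 7.71 CPM against 43.6 and 102 CPM (edgeR adjusted p = 0.0282, and 0.057, 0.194 and 0.775 without the male CTX-1, the female CTX-1 and the female CTX-2 sum). Of the 26 genes, 25 pointed the same way in each library alone. The exception was P2rx7, a receptor for ATP, which is named after its values were seen.

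Against L5 PT the differences were many and large in both directions. Cux2 was 541 and 491 CPM in CTX-1 against 9.80 and 5.78 CPM, a log2 fold change of 6.08 (SE 0.28, edgeR adjusted p = 5.97e-11), with Car10 at 5.02 and Igfn1 at 5.06 also called. Rasgrf2 (ENSMUSG00000021708, chr13:91880400-92131656, minus strand), a guanine nucleotide exchange factor used as an upper layer marker, was at 728 and 671 against 165 and 129.9 CPM, a log2 fold change of 2.22 (SE 0.25, edgeR adjusted p = 5.27e-06). Stard8, a GTPase activating protein, was at 81.2 and 63.5 against 4.29 and 6.94 CPM (3.51), and the non-coding gene Gm4876 at 78.8 and 54.4 against 3.06 and 1.16 CPM (5.03). Gsg1l, at 6.74 and 5.21 CPM in L5 PT, was higher in CTX-1 by 4.32 on the log2 scale. Each of these 7 calls was kept under every alternative that tested the gene. The antisense gene 2700069I18Rik was at 29.5 and 46.7 CPM in CTX-1 and 0 and 0.578 CPM in L5 PT, a level too low there for a fold.

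The genes with the largest folds below L5 PT were Tcerg1l, Gm42196, Rsad2, Clec3a, Hmga2 and Tmem163. Tcerg1l (ENSMUSG00000091002, chr7:138208974-138397730, minus strand), related to a transcription elongation regulator, was at 12.03 and 12.2 CPM against 339 and 368 CPM, a log2 fold change of −4.88 (SE 0.30, edgeR adjusted p = 1.2e-08). Tmem163 (ENSMUSG00000026347, chr1:127486546-127679548, minus strand), a zinc transporter of vesicles, was at 39.1 and 36.3 CPM against 649 and 643 CPM, a log2 fold change of −4.13 (SE 0.26, edgeR adjusted p = 1.2e-08). For both genes the CTX-1 sums lay far below the L5 PT sums. At these levels CTX-1 was close to microglia of the same libraries, at 10.8 and 7.96 CPM for Tcerg1l and 35.7 and 22.1 CPM for Tmem163. Hmga2, a chromatin protein of the high mobility group, was at 21.1 and 3.63 against 235 and 194 CPM (−4.24), and the non-coding Gm42196 at 9.03 and 3.63 against 164 and 155 CPM (−4.73). All 4 calls were kept under every alternative that tested the gene. The interferon-induced antiviral gene Rsad2 was at 1.81 and 0.907 CPM against 39.8 and 33.0 CPM, which is 3 and 2 UMIs in CTX-1.

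Against the mean of the 5 other labels, CTX-1 was higher in Cux2 (log2 fold change 4.62, SE 0.19, edgeR adjusted p = 1.37e-11), Rasgrf2 (2.91), Igfn1 (3.24), Stard8 (2.71) and Car10 (1.61), calls that no alternative ended. For Car10 the L4/5 IT sums exceeded those of CTX-1. Some sums of L5 IT (15 and 20 nuclei) and L6 CT (41 and 44) were at 0 for low genes, so the fitted folds of those genes depend on the prior count. Nes (ENSMUSG00000004891, chr3:87971078-87980451, plus strand), which codes for the intermediate filament nestin, was at 53.5 and 60.3 CPM in CTX-1, 38.2 and 46.9 in CTX-2, 30.1 and 31.7 in L6 IT, 23.2 and 28.2 in L4/5 IT and 4.90 and 9.25 in L5 PT, with 0 UMIs in both L5 IT sums, which allows up to 38.6 and 14.3 CPM there. It was called higher in CTX-1 than in L5 PT (log2 fold change 2.84, SE 0.33, edgeR adjusted p = 1.08e-05) and than the mean of the 5 labels (edgeR adjusted p = 1.3e-05). A Nes UMI was found in 16.7% (13.0–20.9%) and 25.0% (19.8–30.8%) of CTX-1 nuclei and 1.83% and 1.67% of microglia. Tnc, which codes for the matrix protein tenascin C, was at 22.3 and 37.6 CPM in CTX-1 and 26.3 and 16.2 in L5 PT, which overlap, and 25.1 and 21.9 in L6 IT. It was called higher than the mean of the 5 labels, of which L4/5 IT, L5 IT and L6 CT had at most 4.49 CPM.

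CTX-1 was lower than the mean of the 5 labels in Tox, a chromatin factor of the high mobility group, at 24.1 and 30.8 CPM with the other sums between 94.3 and 695 CPM (log2 fold change −3.04, SE 0.28, edgeR adjusted p = 1.17e-06). Grik3, a kainate receptor subunit, was at 16.8 and 36.7 CPM with the others between 70.4 and 447 CPM (log2 fold change −3.00, SE 0.26, edgeR adjusted p = 7.06e-07). For Tox and Grik3 each CTX-1 sum was the lowest of the 7 labels in its library. Htr1f, a serotonin receptor, was at 18.1 and 12.2 CPM (log2 fold change −2.42). These calls, and that of Ncam2 (−2.61), were kept under every alternative that tested the gene. Hs3st4 and Cdh18, which were highest in L6 CT at 2647 and 2421 and 1801 and 1364 CPM, were at 16.2 and 31.3 and 31.3 and 26.8 CPM in CTX-1. Both were called (edgeR adjusted p = 1.03e-05 and 4.67e-06), and both calls were lost among nuclei with fewer than 3 microglial UMIs (adjusted p = 0.237 and 0.127).

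Several calls of genes described here were lost in settings that kept fewer nuclei or UMIs. Among nuclei with fewer than 3 microglial UMIs edgeR no longer called Cux2, Grik1, Luzp2, Qrfpr and Syndig1 (adjusted p from 0.116 to 0.873) against CTX-2. Against L5 PT it lost Cacna1c, Cntn2, Ddit3, Epha7, Gpc5, Gria1, Hrk, Map1b, Ret, Rorb, Sox5 and Tnik (adjusted p from 0.0529 to 0.911). Against the mean it lost Cdh18, Cntnap5b, Dcc, Gria1, Grm8, Hs3st4, Inhba, Scg2 and Slit3 (adjusted p from 0.0805 to 0.825). After thinning, Cux2, Foxp2, Gsg1l, Luzp2 and Syndig1 (adjusted p from 0.0653 to 0.623) were lost against CTX-2. So were Dusp10, Foxp2, Hrk and Rorb (adjusted p from 0.0758 to 0.207) against L5 PT and Inhba (adjusted p = 0.0597) against the mean. In the leading clusters, Ankrd6, Ccbe1, Cux2, Foxp2 and Syndig1 (adjusted p from 0.0760 to 0.993) were lost against CTX-2. Gpc5 (adjusted p = 0.244) was lost against L5 PT and Bdnf, Gria1 and Inhba (adjusted p from 0.0503 to 0.216) against the mean. DESeq2 did not call Ccbe1, Clec3a, Dusp10, Gad2, Hrk, Rest, Ret and Rorb (adjusted p from 0.0667 to 0.165) against L5 PT. Against the mean it did not call Bcl2l11, Bdnf and Inhba (adjusted p from 0.0576 to 0.0945).

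Gene lists are described by the number of members called and by their median, to be read beside the shares and medians of all genes given above. Where a count is given for whichever sum was left out, those were the sums of the labels compared. Against the mean of the 5 labels only the CTX-1 sums were left out in turn, and never a sum of the averaged labels. List members given without a level were named after their values were seen. The 18 tested genes of upper layer identity gave 1 higher and 0 lower against CTX-2 (0 and 0 of them whichever sum was left out, and 2 higher and 0 lower with the library as a block), 9 higher and 1 lower against L5 PT (6 and 1 of them whichever sum was left out) and 7 higher and 0 lower against the mean of the 5 labels (7 and 0 of them whichever sum was left out). Their median log2 fold changes were 0.18, 1.10 and 0.55. Those higher than in L5 PT were Car10, Cux1, Cux2, Igfn1, Lhx2, Mef2c, Rasgrf2, Stard8 and Tcf4, several of them transcription factors, while the cadherin Cdh13 was lower. Slc17a7, the vesicular glutamate transporter VGLUT1, was low at 66.8 and 43.1 CPM in CTX-1, 34.3 and 13.9 in L5 PT and 32.1 and 11.6 in microglia. The Slc17a7 difference from L5 PT had an edgeR adjusted p of 0.0743, and of 0.000105 with the library as a block.

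The 14 tested genes of deep layer identity gave 0 higher and 3 lower against CTX-2 (0 and 1 of them whichever sum was left out), 3 higher and 5 lower against L5 PT (2 and 3 of them whichever sum was left out) and 1 higher and 6 lower against the mean of the 5 labels (1 and 2 of them whichever sum was left out). The list had median log2 fold changes of −0.63, −0.04 and −0.54. Bcl11b, the CTIP2 factor of corticospinal neurons, was at 14.4 and 12.2 CPM against 61.9 and 42.5 in L5 PT and 109.9 and 117 in L6 CT, and was lower than in L5 PT at −1.97 (SE 0.36, edgeR adjusted p = 0.000809) on the log2 scale. Crym, Foxp2, Sox5 and Tshz2 were the other 4 lower than in L5 PT. The Sox5 call (log2 fold change −0.77) was lost without any 1 of the 4 sums (edgeR adjusted p up to 0.242). The Foxp2 call was lost without either CTX-1 sum and without the female L5 PT sum (edgeR adjusted p up to 0.169). Syt6, a synaptotagmin that marks corticothalamic neurons, was instead higher in CTX-1 than in L5 PT, at 469.9 and 382 against 81.5 and 105 CPM (log2 fold change 2.13, SE 0.29, edgeR adjusted p = 3.75e-05), and higher than the mean of the 5 labels (1.28), although L6 CT exceeded it at 745 and 891 CPM. The layer 4 factor Rorb was at 72.2 and 50.3 CPM in CTX-1, 31.8 and 35.6 in L5 PT and 369.5 and 355 in L4/5 IT. The Rorb call against L5 PT (edgeR adjusted p = 0.0256) was lost without the male CTX-1 sum (0.339) and without either L5 PT sum (0.243 and 0.0652).

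Among ion channels, potassium channels of the Kv3 and Kv4 families and calcium channel subunits were higher in CTX-1 than in L5 PT. The 39 tested sodium and potassium channel genes gave 0 calls against CTX-2 (edgeR, with 7 at an unadjusted p under 0.05, and 0 higher and 1 lower by DESeq2, and 0 higher and 1 lower with the library as a block), 13 higher and 2 lower against L5 PT (9 and 1 of them whichever sum was left out) and 6 higher and 1 lower against the mean of the 5 labels (0 and 0 of them whichever sum was left out, and 7 higher and 4 lower with the library as a block). Median log2 fold changes of its tested members were 0.12, 0.43 and 0.16. Kcnc1, a potassium channel of the Kv3 family that lets neurons fire fast, was at 90.3 and 84.8 CPM against 14.7 and 15.6 in L5 PT, without overlap (log2 fold change 2.46, SE 0.25, edgeR adjusted p = 1.8e-06). Kcnh1, an ether-a-go-go potassium channel, was at 647 and 651 against 157 and 206 CPM (log2 fold change 1.79, SE 0.26, edgeR adjusted p = 7.45e-05). Kcnip4, a subunit that binds Kv4 channels, was at 11766 and 7753 against 3179 and 3108 CPM (log2 fold change 1.59, SE 0.31, edgeR adjusted p = 0.00148), and the Kv4 channels Kcnd2 and Kcnd3 were among those higher. These 3 calls against L5 PT were kept under every alternative that tested the gene.

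The 15 tested calcium channel genes gave 0 calls against CTX-2 (edgeR, with 2 at an unadjusted p under 0.05, and 1 higher and 0 lower by DESeq2), 6 higher and 0 lower against L5 PT (4 and 0 of them whichever sum was left out) and 4 higher and 0 lower against the mean of the 5 labels (1 and 0 of them whichever sum was left out). Over the tested members, the medians of the log2 fold change were 0.19, 0.54 and 0.25. Cacna2d1, an auxiliary subunit that also binds gabapentin, was at 753 and 610.0 CPM in CTX-1 and 249.9 and 215 in L5 PT, a log2 fold change of 1.52 (SE 0.20, edgeR adjusted p = 3.04e-05). Cacng2 (stargazin), which carries AMPA receptors to the synapse, was at 181 and 164 against 60.6 and 53.5 CPM (log2 fold change 1.56, SE 0.18, edgeR adjusted p = 6.49e-06), and the T-type channel Cacna1i at 159 and 143 against 53.9 and 55.5 CPM (log2 fold change 1.42, SE 0.24, edgeR adjusted p = 0.000356). In all 3 the CTX-1 sums stood above both L5 PT sums, and the calls were kept under every alternative. Cacna1c was called at a smaller fold (0.63), a call lost without any 1 of the 4 sums (edgeR adjusted p up to 0.271).

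Receptors for glutamate and GABA differed in both directions. The 34 tested receptor genes gave 0 higher and 1 lower against CTX-2 (0 and 0 of them whichever sum was left out, and 1 higher and 2 lower with the library as a block), 7 higher and 6 lower against L5 PT (3 and 2 of them whichever sum was left out) and 3 higher and 5 lower against the mean of the 5 labels (1 and 2 of them whichever sum was left out). Their median log2 fold changes were −0.07, 0.21 and −0.08. Grm8, a group III metabotropic receptor, was lower than the mean of the 5 labels, at 85.4 and 96.6 CPM (log2 fold change −1.30, SE 0.21, edgeR adjusted p = 0.000492), although L6 IT stood lower still at 55.2 and 58.5 CPM. Its call was lost among nuclei with fewer than 3 microglial UMIs (edgeR adjusted p = 0.24). Gria1, an AMPA receptor subunit, was at 2742 and 2287 CPM, above every other label, and was called against L5 PT and against the mean (0.76 and 0.66). The Gria1 calls were lost without the male (edgeR adjusted p = 0.156 and 0.217) or the female CTX-1 sum (0.068 and 0.111).

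The 17 tested activity-dependent genes gave 0 calls against CTX-2 (edgeR, with 5 at an unadjusted p under 0.05, and 0 higher and 0 lower by DESeq2), 3 higher and 0 lower against L5 PT (2 and 0 of them whichever sum was left out, and 4 higher and 2 lower with the library as a block) and 3 higher and 0 lower against the mean of the 5 labels (1 and 0 of them whichever sum was left out). The list had median log2 fold changes of −0.15, 0.32 and 0.35. Nrn1, which codes for neuritin, was at 90.3 and 126 CPM against 34.3 and 36.4 in L5 PT (log2 fold change 1.58, SE 0.26, edgeR adjusted p = 0.000233), and Egr3 and Nptx2 were the other 2 higher than in L5 PT. The granule protein gene Scg2 was at 159 and 174 CPM and was higher than the mean of the 5 labels (log2 fold change 1.23, SE 0.19, edgeR adjusted p = 0.000373), a call lost among nuclei with fewer than 3 microglial UMIs (1.04, edgeR adjusted p = 0.0805). Bdnf, the brain-derived neurotrophic factor, was at 57.8 and 39.9 CPM in CTX-1, 36.8 and 43.7 in L4/5 IT, 50.2 and 28.1 in L5 PT and 10.0 and 21.9 in L6 IT. It was called against the mean of the 5 labels (log2 fold change 1.50, SE 0.36, edgeR adjusted p = 0.0147), and the call was lost without the male CTX-1 sum (edgeR adjusted p = 0.18). Inhba was the last gene called there.

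Among guidance genes, the ephrin receptors Ephb1 and Epha7 and the netrin receptor Dcc were lower in CTX-1 than in L5 PT, while Epha4 and Nrp2 were higher. The 38 tested axon guidance receptors and ligands gave 0 higher and 1 lower against CTX-2 (0 and 0 of them whichever sum was left out, and 0 higher and 2 lower with the library as a block), 6 higher and 13 lower against L5 PT (3 and 8 of them whichever sum was left out) and 2 higher and 6 lower against the mean of the 5 labels (0 and 3 of them whichever sum was left out, and 4 higher and 10 lower with the library as a block). Median log2 fold changes of its tested members were 0.02, −0.28 and −0.16. Ephb1, an ephrin receptor, was at 45.7 and 41.7 CPM in CTX-1 against 274 and 279 in L5 PT, without overlap (log2 fold change −2.70, SE 0.25, edgeR adjusted p = 6.13e-07). Dcc, the netrin receptor, was at 374 and 277 CPM, the lowest of the 7 labels, and was called against L5 PT (−0.81) and the mean (log2 fold change −1.09, SE 0.21, edgeR adjusted p = 0.00227), the second call lost without the female CTX-1 sum (adjusted p = 0.121) and the first without any 1 of the 4 sums (adjusted p up to 0.349). The 6 higher than in L5 PT were Epha4, Nrp2, Plxnc1, Sema3a, Sema5b and Unc5d. Slit3, a secreted ligand of Robo receptors, was at 736 and 728 CPM and was higher than the mean of the 5 labels (log2 fold change 0.88, SE 0.17, edgeR adjusted p = 0.00256, and adjusted p = 0.0999 without the female CTX-1 sum).

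The 48 tested adhesion molecules gave 0 higher and 2 lower against CTX-2 (0 and 1 of them whichever sum was left out, and 1 higher and 5 lower with the library as a block), 9 higher and 10 lower against L5 PT (3 and 6 of them whichever sum was left out) and 4 higher and 9 lower against the mean of the 5 labels (0 and 3 of them whichever sum was left out). Over the tested members, the medians of the log2 fold change were −0.11, 0.22 and −0.23. Beside Ncam2, the teneurin Tenm2 was lower than in CTX-2. Cntnap5b, of the contactin-associated family, was at 102 and 85.3 CPM and was lower than the mean of the 5 labels (log2 fold change −1.12, SE 0.18, edgeR adjusted p = 0.000566), a call lost among nuclei with fewer than 3 microglial UMIs (−0.97, edgeR adjusted p = 0.255). The axon initial segment is where action potentials start. The 28 tested genes of that segment gave 0 calls against CTX-2 (edgeR, with 5 at an unadjusted p under 0.05, and 0 higher and 0 lower by DESeq2, and 0 higher and 1 lower with the library as a block), 3 higher and 6 lower against L5 PT (1 and 1 of them whichever sum was left out) and 0 higher and 1 lower against the mean of the 5 labels (0 and 0 of them whichever sum was left out, and 1 higher and 4 lower with the library as a block). Their median log2 fold changes were −0.12, −0.07 and −0.09. Its scaffold Ank3 (ankyrin G) was at 3940.3 and 3382 CPM in CTX-1 and 3984 and 3505 in L5 PT (log2 fold change −0.07, SE 0.19, edgeR adjusted p = 0.91). Cntn2, a contactin found there and at nodes, was lower than in L5 PT, at 25.3 and 20.9 against 60.0 and 52.6 CPM (log2 fold change −1.32, SE 0.29, edgeR adjusted p = 0.00404), a call lost without the female CTX-1 sum (adjusted p = 0.0639).

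**Figure D3:**
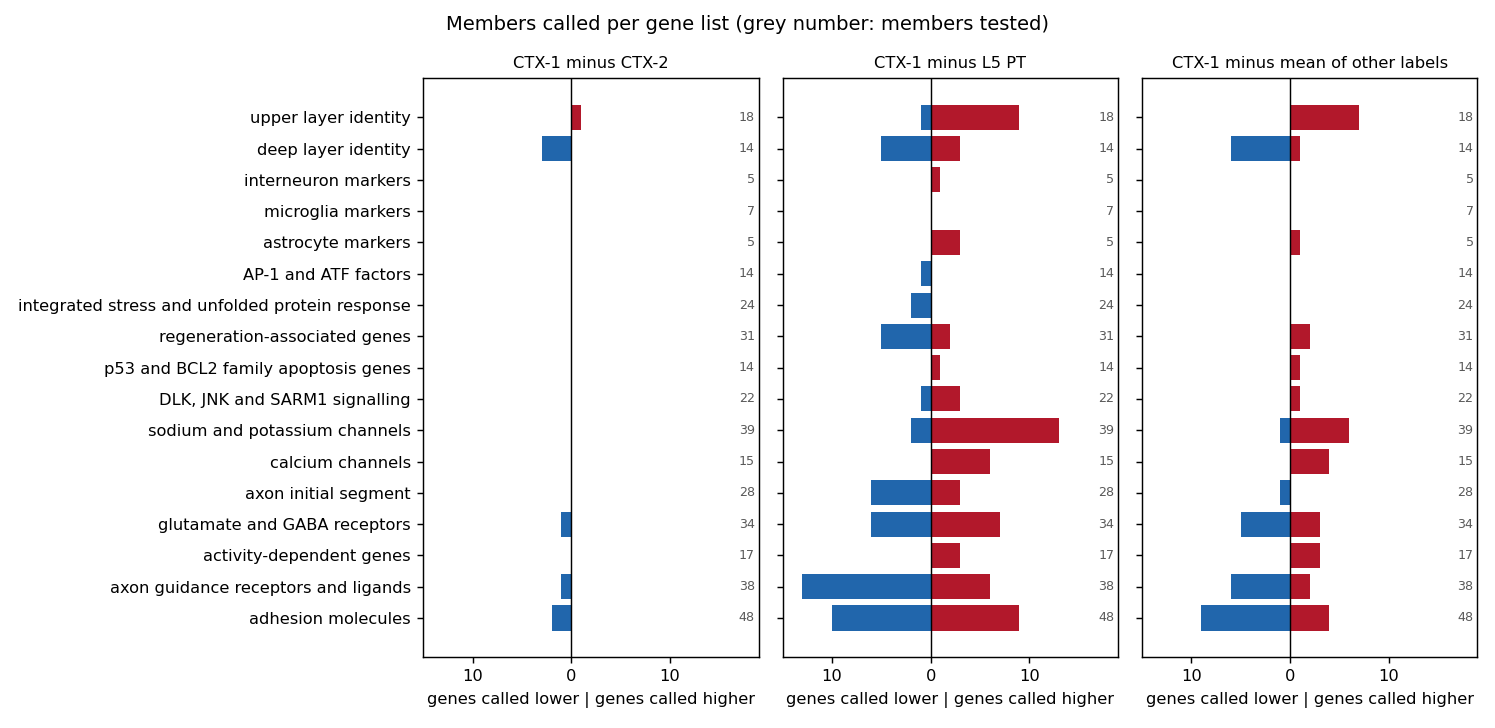
Number of members called per gene list in the 3 comparisons, with those higher in CTX-1 to the right of 0 in red, those lower to the left in blue and the number tested in grey. Against L5 PT, where 6.7% of all genes were higher and 6.35% lower, sodium and potassium channels reach 13 to the right and guidance genes 13 to the left, and bars against CTX-2 reach 3 at most.

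Atf3 (ENSMUSG00000026628, chr1:191170296-191218039, minus strand), the gene behind the reporter, was at 55.4 and 79.4 CPM in CTX-1, a mean of 67.4 ± 17.0 (SD, n = 2), and at 109 and 97.6 in CTX-2, 65.5 and 98.9 in L5 PT, 171 and 171 in L6 IT and 26.5 and 35.9 in microglia. The CTX-1 and L5 PT sums overlap. Atf3 was not called in any comparison, with log2 fold changes of −0.60 (SE 0.46, edgeR adjusted p = 0.829) against CTX-2, −0.34 (SE 0.34, edgeR adjusted p = 0.663) against L5 PT and −0.20 (SE 0.30, edgeR adjusted p = 0.878) against the mean. An Atf3 UMI was found in 17.2% (13.5–21.5%) and 31.0% (25.3–37.1%) of CTX-1 nuclei, 21.0% and 46.6% of L5 PT nuclei and 3.25% and 9.07% of microglia. At 2300 UMIs per nucleus the CTX-1 shares came to 9.20% (5.98–13.4%) and 13.5% (9.42–18.5%), against 6.19% (3.24–10.6%) and 6.39% (5.27–7.67%) in microglia, so at equal depth the male intervals overlap and the female ones do not. Absence of an Atf3 UMI in a nucleus is not absence of the transcript at this depth.

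Ecel1 (ENSMUSG00000026247, chr1:87147655-87156521, minus strand), an endopeptidase induced in injured neurons, was found in more CTX-1 nuclei than Atf3, Ddit3, Jun or Sprr1a. It was at 283 and 409.5 CPM in CTX-1, 316 and 328 in CTX-2, 329.5 and 418 in L5 PT, 108 and 189 in L4/5 IT and 40.1 and 21.4 in microglia. The CTX-1 and L5 PT sums overlap, with a log2 fold change of −0.14 (SE 0.37, edgeR adjusted p = 0.898). Against the mean of the 5 labels it was 0.45 (SE 0.29, edgeR adjusted p = 0.533), with adjusted p = 0.0315 with the library as a block. An Ecel1 UMI was found in 65.6% (60.4–70.5%) and 78.2% (72.6–83.1%) of CTX-1 nuclei and, after thinning, in 47.5% and 59.1%, against 3.09% and 4.56% in thinned microglia.

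Ddit3 (ENSMUSG00000025408, chr10:127290774-127296288, plus strand), the CHOP factor of the integrated stress response, was lower in CTX-1 than in L5 PT. It was at 92.1 and 69.8 CPM in CTX-1 and 270.1 and 154 CPM in L5 PT, without overlap, a log2 fold change of −1.40 (SE 0.27, edgeR adjusted p = 0.00125). The call was lost only among nuclei with fewer than 3 microglial UMIs, where the log2 fold change was −1.36 (edgeR adjusted p = 0.0529). The levels of Ddit3 were 213 and 117 CPM in CTX-2, 56.1 and 52.1 in L4/5 IT and 356 and 151 in L6 IT, so CTX-1 was not the lowest. Against the mean of the 5 labels the log2 fold change was −0.72 (SE 0.24, edgeR adjusted p = 0.0875), with adjusted p = 0.00352 with the library as a block. A Ddit3 UMI was found in 28.9% (24.3–33.9%) and 29.8% (24.2–35.8%) of CTX-1 nuclei and 59.4% (54.0–64.5%) and 67.2% (61.5–72.6%) of L5 PT nuclei, and after thinning in 19.5% and 13.1% of CTX-1 and 39.6% and 26.3% of L5 PT nuclei. Microglia had it in 7.04% and 9.37% of nuclei, and after thinning in 9.28% and 6.57%.

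The 31 tested genes linked to axon regeneration gave 0 calls against CTX-2 (edgeR, with 4 at an unadjusted p under 0.05, and 1 higher and 0 lower by DESeq2), 2 higher and 5 lower against L5 PT (2 and 0 of them whichever sum was left out, and 3 higher and 8 lower with the library as a block) and 2 higher and 0 lower against the mean of the 5 labels (1 and 0 of them whichever sum was left out, and 5 higher and 1 lower with the library as a block). The list had median log2 fold changes of 0.16, −0.17 and 0.10. Sprr1a, a small proline-rich protein of regenerating axons, was at 36.7 and 44.9 CPM against 117 and 74.0 in L5 PT (log2 fold change −1.22, SE 0.27, edgeR adjusted p = 0.00381), a call lost without the male CTX-1 (adjusted p = 0.079) or the male L5 PT sum (adjusted p = 0.0659). Ret, a receptor of GDNF family ligands, was at 83.6 and 57.1 against 122 and 178 CPM (log2 fold change −1.17, SE 0.29, edgeR adjusted p = 0.00951), a call lost without the female CTX-1 (adjusted p = 0.158) or the female L5 PT sum (adjusted p = 0.281). Itga7, an integrin, was at 14.4 and 15.9 against 35.5 and 64.8 CPM (log2 fold change −1.80, SE 0.34, edgeR adjusted p = 0.00112, and adjusted p = 0.13 without the female L5 PT sum). The microtubule gene Map1b and the repressor Rest were also called lower, at −0.87 and −0.91, and were lost without either CTX-1 sum (adjusted p up to 0.303) and without the female L5 PT sum (adjusted p = 0.0724 and 0.161). The receptor Ntrk2 and Cacna2d1 were the 2 higher genes. Sox11, a factor that promotes axon growth, was at 273 and 210.4 CPM in CTX-1 and 366 and 333 in L5 PT (log2 fold change −0.57, SE 0.30, edgeR adjusted p = 0.28).

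**Figure D4:**
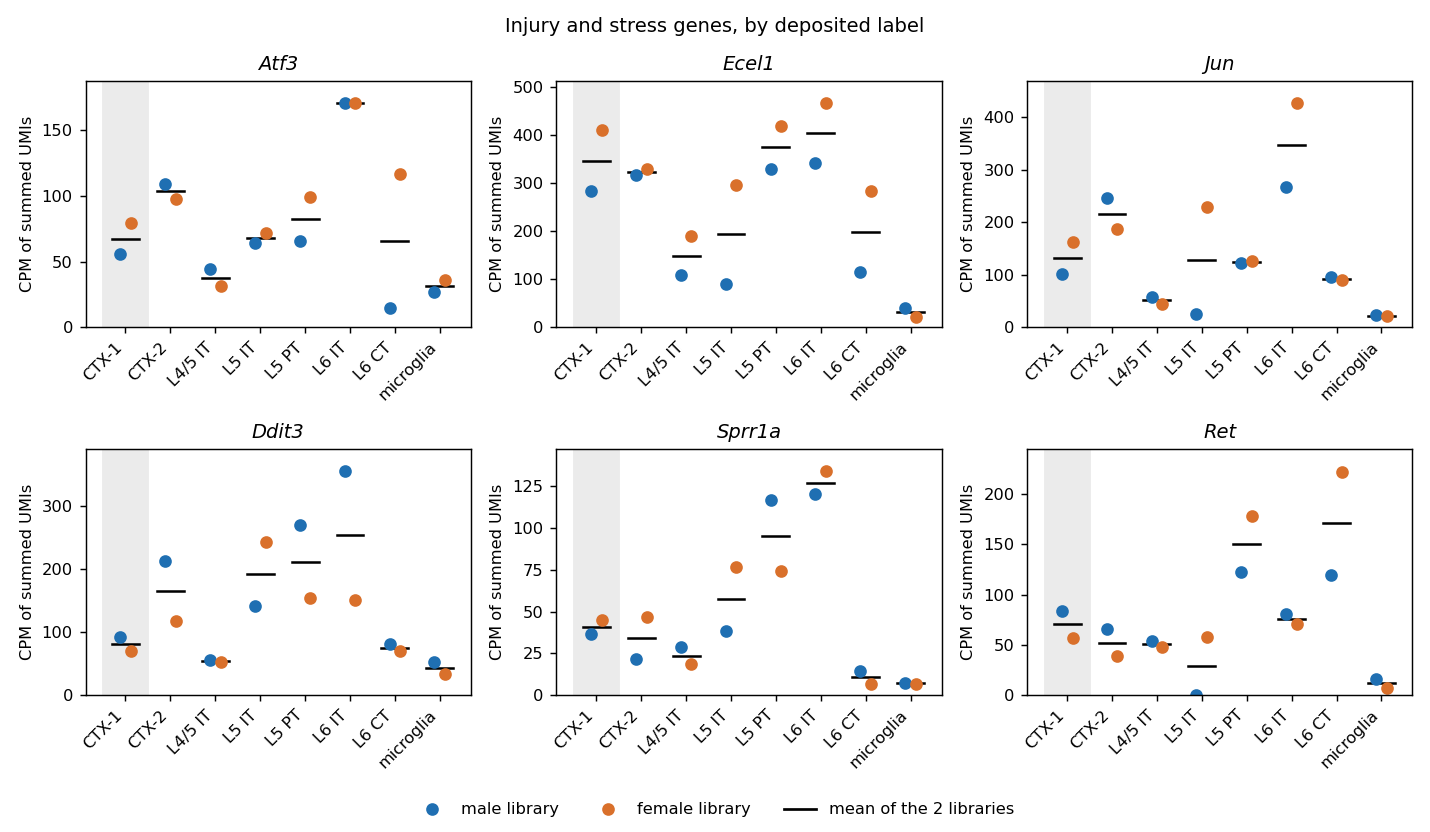
Levels of Atf3, Ecel1, Jun, Ddit3, Sprr1a and Ret in CPM of summed UMIs, by deposited label and in microglia, with a point for each library and a bar for their mean. For Ddit3, Sprr1a and Ret both CTX-1 points lie below both L5 PT points, while for Atf3, Ecel1 and Jun the points of these labels overlap.

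The other stress lists are read beside the 6.35% of all genes tested that were called lower than in L5 PT. Beside that share, 1 lower call among the 14 AP-1 and ATF factors and 2 among the 24 stress response genes set neither list apart. The 14 tested AP-1 and ATF factors gave 0 calls against CTX-2 (edgeR, with 0 at an unadjusted p under 0.05, and 0 higher and 0 lower by DESeq2), 0 higher and 1 lower against L5 PT (0 and 0 of them whichever sum was left out, and 0 higher and 2 lower with the library as a block) and 0 calls against the mean of the 5 labels (edgeR, with 2 at an unadjusted p under 0.05, and 0 higher and 0 lower by DESeq2). Median log2 fold changes of its tested members were 0.06, 0.06 and −0.01. The gene lower than in L5 PT was Crem. Jun, the AP-1 partner of Atf3, was at 102 and 163 CPM in CTX-1 and 123 and 126 in L5 PT (log2 fold change 0.07, SE 0.32, edgeR adjusted p = 0.959). The 24 tested genes of the integrated stress and unfolded protein responses gave 0 calls against CTX-2 (edgeR, with 3 at an unadjusted p under 0.05, and 0 higher and 0 lower by DESeq2), 0 higher and 2 lower against L5 PT (0 and 1 of them whichever sum was left out, and 1 higher and 3 lower with the library as a block) and 0 calls against the mean of the 5 labels (edgeR, with 3 at an unadjusted p under 0.05, and 0 higher and 0 lower by DESeq2, and 1 higher and 1 lower with the library as a block). Over the tested members, the medians of the log2 fold change were −0.32, 0.06 and 0.12. The genes lower than in L5 PT were Ddit3 and the kinase Eif2ak2. Eif2ak3 (PERK) was at 119 and 124 CPM in CTX-1 and 121 and 118 in L5 PT. Ern1 (IRE1) was at 56.0 and 55.8 against 83.3 and 94.0 CPM (log2 fold change −0.71, SE 0.26, edgeR adjusted p = 0.0795, and adjusted p = 0.00717 with the block).

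The 14 tested genes of p53 and the BCL2 family gave 0 calls against CTX-2 (edgeR, with 0 at an unadjusted p under 0.05, and 0 higher and 0 lower by DESeq2), 1 higher and 0 lower against L5 PT (0 and 0 of them whichever sum was left out, and 3 higher and 2 lower with the library as a block) and 1 higher and 0 lower against the mean of the 5 labels (0 and 0 of them whichever sum was left out, and 3 higher and 0 lower with the library as a block). Their median log2 fold changes were 0.08, 0.10 and 0.21. Of all genes tested, 6.7% were called higher than in L5 PT and 3.92% higher than the mean, so 1 call among 14 members sets the list apart in neither comparison. The called genes, Hrk and Bcl2l11, code for pro-apoptotic BH3 proteins. Hrk was at 118 and 105 CPM against 77.2 and 56.1 in L5 PT (log2 fold change 0.73, SE 0.22, edgeR adjusted p = 0.0372), and Bcl2l11 (BIM) at 28.3 and 31.3 CPM against a mean of 13.0 CPM over the 5 labels (log2 fold change 1.45, SE 0.37, edgeR adjusted p = 0.0241). Both calls were lost without the male or the female CTX-1 sum, with edgeR adjusted p of 0.193 and 0.17 for Hrk and 0.1 and 0.287 for Bcl2l11, and the Hrk call also without either L5 PT sum (0.0743 and 0.334). Bbc3 (PUMA) was at 43.9 and 17.7 CPM against 78.4 and 25.5 in L5 PT (log2 fold change −0.74, SE 0.42, edgeR adjusted p = 0.326, and adjusted p = 0.046 with the block).

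DLK and JNK kinases carry axon injury signals to the nucleus, and SARM1 drives axon degeneration. The 22 tested genes of DLK, JNK and SARM1 signalling gave 0 calls against CTX-2 (edgeR, with 1 at an unadjusted p under 0.05, and 0 higher and 0 lower by DESeq2), 3 higher and 1 lower against L5 PT (1 and 0 of them whichever sum was left out) and 1 higher and 0 lower against the mean of the 5 labels (0 and 0 of them whichever sum was left out, and 2 higher and 1 lower with the library as a block). The list had median log2 fold changes of −0.14, −0.08 and 0.03. Mapk14, the kinase p38 alpha, was at 161 and 125 CPM against 57.6 and 46.9 in L5 PT, without overlap (log2 fold change 1.42, SE 0.18, edgeR adjusted p = 2.34e-05), a call kept under every alternative, and the JNK gene Mapk10 was also higher. Dusp10, a phosphatase of JNK and p38, was at 54.2 and 44.9 against 28.2 and 18.5 CPM (log2 fold change 1.08, SE 0.28, edgeR adjusted p = 0.0127), a call lost without either CTX-1 sum (adjusted p = 0.119 and 0.0608) and without the female L5 PT sum (adjusted p = 0.196). Tnik, a kinase upstream of JNK, was lower in CTX-1, at 1816 and 1781 against 3187 and 3199 CPM (log2 fold change −0.86, SE 0.20, edgeR adjusted p = 0.00515), and was lost without either CTX-1 sum (adjusted p = 0.0994 and 0.0611) or the female L5 PT sum (adjusted p = 0.101).

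Of the tested markers of microglia (7), oligodendrocytes (2) and vascular cells (2), edgeR and DESeq2 called 0 in each of the 3 comparisons. At an unadjusted p under 0.05 there was 1 gene of each list against CTX-2 and 1 oligodendrocyte gene against L5 PT. With the library as a block 1 microglial gene was lower than in CTX-2, and 1 oligodendrocyte gene, Mbp, was lower than in L5 PT (adjusted p = 0.00474). Of the astrocyte markers, Gpc5, Slc1a2 and Slc4a4 were higher than in L5 PT, at 1.32, 2.55 and 2.42 on the log2 scale. Slc1a2, a glutamate transporter, was at 138 and 161 CPM in CTX-1, 323 and 299 in L4/5 IT and 444 and 157 in L6 CT, while Slc1a3, another astrocyte transporter, was at 8.42 and 4.08 CPM. The 5 tested astrocyte markers gave 0 calls against CTX-2 (edgeR, with 1 at an unadjusted p under 0.05, and 0 higher and 0 lower by DESeq2), 3 higher and 0 lower against L5 PT (2 and 0 of them whichever sum was left out) and 1 higher and 0 lower against the mean of the 5 labels (0 and 0 of them whichever sum was left out). Median log2 fold changes of its tested members were −0.30, 1.32 and 0.04. The 9 markers of the full astrocyte list summed to 267 and 321 CPM in CTX-1. The 5 tested interneuron markers gave 0 calls against CTX-2 (edgeR, with 2 at an unadjusted p under 0.05, and 0 higher and 0 lower by DESeq2), 1 higher and 0 lower against L5 PT (0 and 0 of them whichever sum was left out) and 0 calls against the mean of the 5 labels (edgeR, with 0 at an unadjusted p under 0.05, and 0 higher and 0 lower by DESeq2). Over the tested members, the medians of the log2 fold change were −1.55, 0.88 and −0.17. Gad2 was higher than in L5 PT, at 9.63 and 6.35 against 1.84 and 1.16 CPM (log2 fold change 2.33, SE 0.76, edgeR adjusted p = 0.0489), and the call was lost without any 1 of the 4 sums (adjusted p up to 0.322).

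Within CTX-1, the shares of nuclei with other injury genes were set beside Atf3. To set depth equal, nuclei were thinned to 2300 UMIs, which left 24 male and 32 female nuclei with an Atf3 UMI and 237 and 205 without. Ecel1 was found in 66.7% (44.7–84.4%) and 71.9% (53.3–86.3%) of those with an Atf3 UMI and in 45.6% (39.1–52.1%) and 57.1% (50.0–63.9%) of those without. For Jun the shares were 37.5% (18.8–59.4%) and 37.5% (21.1–56.3%) with and 16.9% (12.3–22.3%) and 22.9% (17.4–29.3%) without an Atf3 UMI. In each library both shares were higher beside Atf3, with intervals that overlap. For Ddit3 the shares were 33.3% (15.6–55.3%) and 15.6% (5.28–32.8%) against 18.1% (13.5–23.7%) and 12.7% (8.45–18.0%), with overlap as well. Sprr1a had no such order, at 4.17% (0.105–21.1%) and 18.8% (7.21–36.4%) with and 5.91% (3.27–9.71%) and 6.83% (3.78–11.2%) without an Atf3 UMI. It was lower beside Atf3 in the male and higher in the female library. Cux2, taken as a gene outside the injury lists, was found in 50.0% (29.1–70.9%) and 59.4% (40.6–76.3%) of nuclei with and 65.8% (59.4–71.8%) and 57.1% (50.0–63.9%) of nuclei without an Atf3 UMI. The nuclei of a library share their pool, so these shares are a description without a test.

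The 612 nuclei lay in several deposited clusters, of which 4 held at least 20 of them. Their levels are a description without a test, since the clusters were made from the same counts, and genes named only here were chosen after their values were seen. In the 32 nuclei of cluster 14 (17 male, 15 female), injury and stress genes stood far above the 471 nuclei of cluster 3. Atf3 was at 381 and 289.5 CPM against 40.3 and 68.7, Jun at 915 and 1372 against 67.1 and 109, and Ddit3 at 584 and 428 against 68.6 and 47.6. In each of these genes both libraries of cluster 14 exceeded both libraries of cluster 3. Ecel1 was less far apart, at 432 and 755 against 272 and 405 CPM, with Npy, a neuropeptide induced in injured neurons, at 1982 and 755 against 40.3 and 32.9 CPM and the Gm26870 transcript at 1296 and 1083 against 9.90 and 5.87 CPM. With 4.72% and 5.95% of the nuclei and 2.37% and 3.60% of the UMIs of CTX-1, cluster 14 held 16.3% and 13.1% of its Atf3 UMIs, 21.3% and 30.4% of its Jun UMIs, 15.0% and 22.1% of its Ddit3 UMIs and 75.0% and 63.2% of its Gm26870 UMIs.

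Other measures moved with cluster 14. Its 84 summed ribosomal protein genes were at 15015 and 7565 CPM against 701 and 612 in cluster 3, its microglial list at 1982 and 1309 against 495 and 907 CPM, and its median depth was 1820 and 4641 against 4213 and 7494 UMIs. The part of these in the levels of Atf3, Jun and Ddit3 was not tested. Nuclei of cluster 14 that were labelled L5 PT (34 and 15) had the same genes high, with Atf3 at 331 and 425, Jun at 705 and 634 and Ddit3 at 714 and 459 CPM and ribosomal protein genes at 12021 and 6813 CPM. Cux2 was at 330.3 and 189 CPM in the CTX-1 nuclei of the cluster, below its 592 and 594 CPM in cluster 3.

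The 35 nuclei of cluster 24 (25 male, 10 female) kept Rasgrf2, at 1064 and 1074 CPM, but had Cux2 at 246 and 195 CPM, below both libraries of cluster 3. They were set apart by Gpc5, a glypican, at 700.5 and 1110.1 CPM against 33.9 and 55.8 in cluster 3, by the nuclear non-coding RNA Neat1 at 999 and 2818 against 80.6 and 116 CPM and by Slc17a9, a vesicular nucleotide transporter, at 558 and 305 against 44.5 and 27.6 CPM. Low there were Ano4, at 51.9 and 24.4 against 765 and 601 CPM, and Ccbe1, at 38.9 and 73.2 against 551 and 421 CPM. Atf3 was at 195 and 97.6 CPM and Jun at 285 and 305 CPM, both above cluster 3 in each library. Ribosomal protein genes were also higher there, at 2257 and 1378 CPM against 701 and 612 in cluster 3, as was the microglial list, at 636 and 1098 against 495 and 907 CPM. The median depth was 2464 and 7606 against 4213 and 7494 UMIs. The part of these in the levels of Atf3 and Jun in the cluster was not tested. The call of Gpc5 as higher than in L5 PT was lost when each label was held to its leading cluster (edgeR adjusted p = 0.244) and without the female CTX-1 sum (adjusted p = 0.0636).

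The 26 nuclei of cluster 17 (9 male, 17 female) went against the markers of their label. Cux2 was at 84.3 and 62.9 CPM, Car10 at 33.7 and 59.0 and Igfn1 at 16.9 and 3.93 CPM, each below both libraries of cluster 3, where Car10 was at 1069 and 973 CPM. Rasgrf2, at 1332 and 916 CPM, was above its 694 and 641 CPM in cluster 3. The adhesion molecule Chl1 was at 877 and 440.3 CPM against 31.1 and 28.2 and Cped1 at 438 and 389 against 15.6 and 8.81 CPM. Their depth, a median of 6254 and 14523 UMIs, was above that of cluster 3, and Atf3, at 33.7 and 82.6 CPM, was near it.

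**Figure D5:**
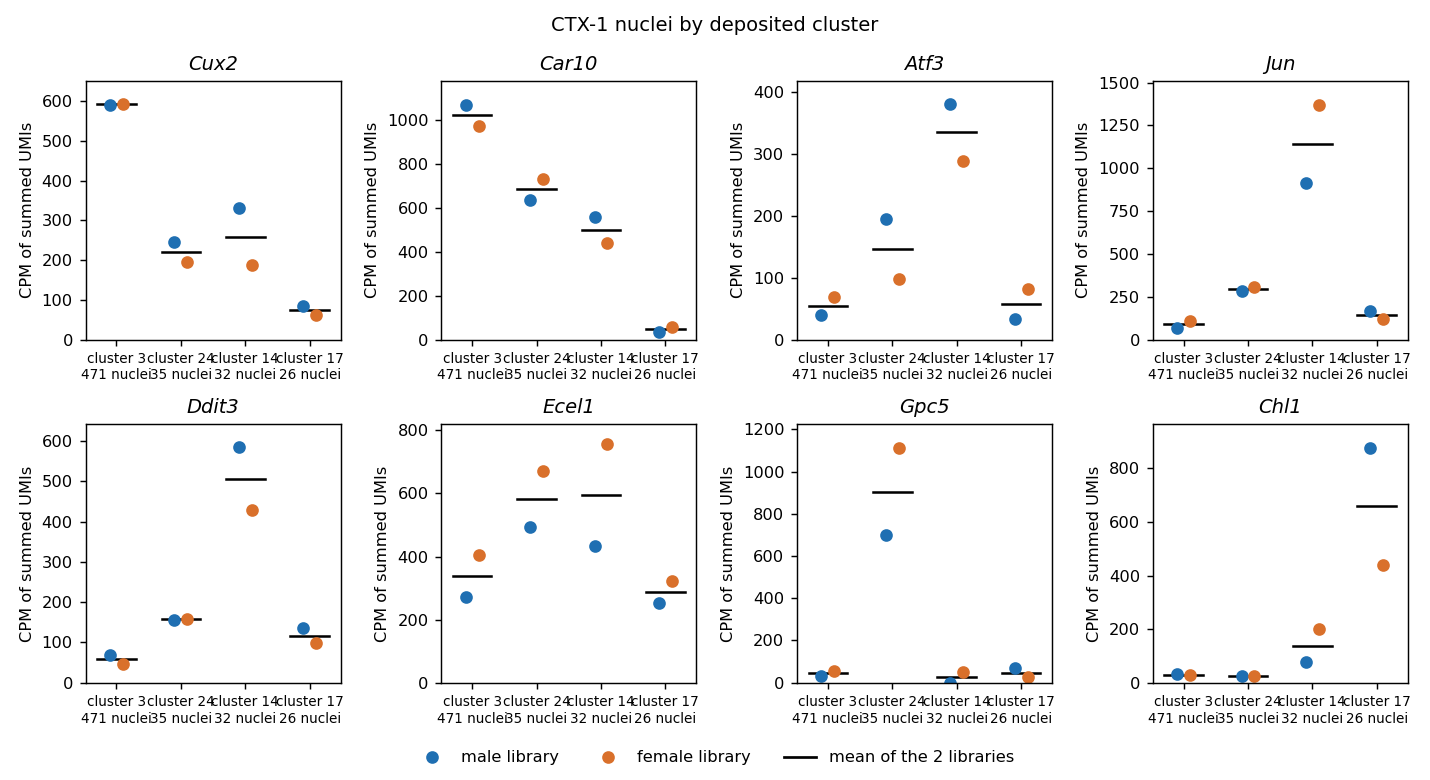
Levels of 8 genes in CPM of summed UMIs in the CTX-1 nuclei of 4 deposited clusters, with a point for each library and a bar for their mean. Atf3, Jun and Ddit3 are highest in cluster 14, Gpc5 in cluster 24 and Chl1 in cluster 17, whose Cux2 and Car10 points lie near 0.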

How the data were processed

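Nuclei positive for GFP and the DNA dye DRAQ5 were sorted from the injured cortex and sequenced with the 10x Genomics 3′ kit, as 1 male and 1 female library. The deposited UMI counts were made by the authors with Cell Ranger (version 3.1.0 in the submitters' processing notes, 7.0.1 and 7.0.0 in the file headers) on a GRCm38 pre-mRNA reference with a GFP sequence added. The authors removed nuclei with many genes or mitochondrial UMIs, integrated the libraries in Seurat and took the labels from a reference map, and the deposited table gives the mitochondrial share in percent. No doublet caller is named in the sources used here and none was run, and the filtered matrices share 1 barcode. A deposited matrix of depth-corrected values was not used.

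Counts as deposited were summed per library and label for the 7 excitatory labels with at least 20 nuclei over both libraries and 5 in each. The 14 sums held between 77702 and 3457660 UMIs. Labels were compared with edgeR 4.0.16 in R 4.3.3 (TMM factors, filterByExpr, quasi-likelihood test), p was adjusted over 7627 genes, and the common dispersion was 0.0319. On simulated sums, where 7055 genes were tested, 29, 49 and 80 of 100 genes changed by 1 on the log2 scale were called in the comparisons with CTX-2, L5 PT and the mean of the 5 labels, and 96, 100 and 100 of 100 changed by 2. There were 4, 9 and 13 false calls. The changed genes were drawn only from those with many UMIs, so the shares do not hold for low genes. All labels had the same mean profile and the common dispersion, and sums of a library were drawn independently, unlike the real ones. Shares of nuclei have exact Clopper-Pearson intervals. Positions are from GENCODE release M21, which lists genes of GRCm38.

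Sums of a library come from the same animals. Their deviations from the label means correlated at r = 0.0473 to 0.516 over the 21 label pairs (median 0.174, across 7627 genes, which are not independent replicates), and at over 0.1 in 18 pairs and in each pair with CTX-1, so calls with the library as a blocking term stand beside the counts. Other alternatives were DESeq2 1.42.0, RLE factors, no filter on low counts, inhibitory labels in the fit, thinned nuclei, nuclei with fewer than 3 microglial UMIs and the leading cluster of each label. Each sum of the labels compared was also left out in turn. Against the mean of the 5 labels this was done for the CTX-1 sums only. Subtraction of the RNA of empty droplets and holding CTX-1 and CTX-2 to 1 cluster were chosen after seeing the data.

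The label and the lists were chosen with earlier results of these data known. Genes named were the label's markers and those the study names for its nuclei, the 6 with the largest fold in each direction of each comparison among called genes at 20 CPM or more that moved the same way in both libraries, and for each list up to 4 members with the smallest p against the mean of the 5 labels and the 2 with the highest level in CTX-1. Some of these genes are not reported here.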

Additional observations from a re-analysis of the deposited data

Results flagged for a closer look

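In 72 of 405 pairs of a named gene and a comparison the ratio of CTX-1 to the other group pointed up in 1 library and down in the other. The 13 genes given here did so by at least 0.5 on the log2 scale in each library. The difference was not tested, since each library is 1 pool, and sex, library and depth cannot be told apart. The values are log2 ratios of CPM with 0.5 added, given as male minus female. Against the mean of the 5 labels the difference was 2.17 for Ret (1.50 for the males and −0.67 for the females) and 1.59 for Slc1a3 (0.55 and −1.03). Against CTX-2 it was 1.71 for Bbc3 (0.59 and −1.12), 2.05 for Bcl11b (0.55 and −1.50), 3.83 for Rsad2 (2.29 and −1.54) and 1.57 for Bdnf (0.98 and −0.59). It was negative for Sulf1 at −2.23 (−1.03 and 1.19), Tcerg1l at −2.40 (−1.65 and 0.75), Clec3a at −2.78 (−1.82 and 0.96) and Kcnt2 at −1.97 (−1.20 and 0.76). Markers of other cells differed most, with 4.53 for the microglial receptor Cx3cr1 (2.55 and −1.98), 6.92 for the astrocyte transporter Slc1a3 (4.26 and −2.66), and 5.63 and 5.17 for the endothelial genes Pecam1 (4.36 and −1.27) and Flt1 (1.20 and −3.97). Of the small CTX-2 sums, the male one held no UMI of Rsad2, Slc1a3, Pecam1 or Flt1 and the female one none of Clec3a, so these ratios depend on the 0.5 that was added.

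UMIs of the GFP reporter, which no comparison used, were found in CTX-1. There were 9 in 8 of 360 male nuclei and 22 in 16 of 252 female nuclei, or 5.42 and 9.98 CPM, above the 1.81 and 1.36 CPM that a count of 0 allows. They were at 4.81 and 6.59 CPM in microglia, 4.90 and 15.04 in L5 PT and 35.1 and 31.7 in L6 IT.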

How the results depend on the processing

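The number of genes called moved by more than 1.5 times in several settings. With the library as a replicate block it was 80 against CTX-2, 1643 against L5 PT and 818 against the mean of the 5 labels, in place of 26, 995 and 460, and of 405 results of named genes the block gained 34 calls and lost 0. Without the filter on low counts it was 118 against CTX-2 (61.0% of them higher, against 30.8%) and 718 against the mean (78.8% higher, against 65.0%), and DESeq2 gave 46 against CTX-2. With nuclei thinned to 2300 UMIs it was 13, 559 and 248, and among nuclei with fewer than 3 microglial UMIs 240 against L5 PT and 73 against the mean, in both of which fewer UMIs were summed. With CTX-1 and CTX-2 held to 1 cluster, a setting chosen after seeing the data, it was 17 against CTX-2. Leaving out 1 sum, which assumes that a lone sum varies like the others, gave 6 (without the female CTX-2 sum) to 22 calls against CTX-2, 552 to 647 against L5 PT and 190 to 199 against the mean. Against the mean only the CTX-1 sums were left out, and no sum of the averaged labels. RLE factors, inhibitory labels in the fit, the leading cluster of each label and subtraction of the RNA of empty droplets kept the 3 counts within 1.5 times. Among the calls of named genes, some were kept in every setting that tested the gene. They were 3 of 15 against CTX-2, 37 of 66 against L5 PT and 19 of 55 against the mean. Some low genes were tested in fewer settings, such as Tnc against the mean in 9, where Cux2 was tested in 12.

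Among results called in the main fit or in the other setting, log2 fold changes turned sign for 7 named genes. Sign changes of results called in neither were not counted. In the leading clusters they were 0.070 for Bcl11b and 0.12 for Ephb1 against the mean and 0.37 for Foxp2 against CTX-2. In 1 cluster they were 0.40 for Foxp2 against CTX-2 and −2.28 for Gm26870 against L5 PT, and among nuclei with fewer than 3 microglial UMIs −0.19 for Gpc5, 0.17 for Kcnt2 and 0.99 for Epha7 against the mean. The cause was not tested. At 2300 UMIs per nucleus, 65 of 74 shares of CTX-1 nuclei with a UMI moved beyond their interval, and among nuclei with fewer than 3 microglial UMIs 78 of 141 CTX-1 levels moved by more than the SD of the 2 libraries. The small CTX-2 and L5 IT sums limit what could be called, and genes under the filter were not tested.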

Other observations

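Beside the 32 CTX-1 nuclei of cluster 14, 17 male and 5 female nuclei of that cluster were labelled CTX-2. Atf3 was at 568 and 499 CPM in them, Jun at 871 and 1424 CPM, Ddit3 at 1060.3 and 214 CPM and Gm26870 at 2613 and 1780.5 CPM. The female value of Ddit3 rests on 3 UMIs. The levels of Atf3 and Jun were above those of CTX-1 nuclei of cluster 3 in both libraries.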
